A study of Mus musculus with 5 samples.

Results

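The widest distal DNaseI hypersensitive sites (DHSs) of hemogenic endothelium (HE) are described here. A DHS was counted as distal when its middle lay over 2 kb from every transcription start site (TSS) of a curated RefSeq protein-coding transcript, which applied to 20913 of the 33305 DHSs in the HE list. Predicted transcripts were left out of this rule, and 165 of the wide sites held another start of a protein-coding gene. The wide sites were those whose width, the end minus the start of the listed interval, was at or above the 90th percentile of the distal sites, 1500 bp. There were 2928 of them, in a series of 5 lists with 135173 DHSs in all. They were compared with the 17985 narrower distal DHSs of the same HE list and with the 4 lists of the other stages. Width chose the sites, so their own width, and how far it was shared with other stages, are descriptions.

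The series mapped DNaseI hypersensitivity along blood development in cells made from 1 line of strain 129 mouse ES (embryonic stem) cells, which carries a brachyury (Bry) GFP reporter and was kept on embryonic fibroblasts. Cells were sorted as mesoderm (MES, Bry.GFP+, FLK1-), hemangioblast (HB, Bry.GFP+, FLK1+), HE (Bry.GFP+, Tie2+/Ckit+/CD41-), CD41+ progenitors of blood (HP) and CD11b+ macrophages (MAC), with cytokines added to take FLK1+ cells on towards HE, HP and MAC. Each stage is represented by 1 list of intervals (n = 1; the MAC sample names 2 replicates together), with 21949 DHSs in MES, 24729 in HB, 17734 in HP and 37456 in MAC. The lists hold positions with no signal or read count, so they do not give the depth behind them. The paper reports total aligned reads for its experiments in its supplement, and these were not used here. With 1 list per stage, stages could not be tested against each other. The intervals given below are 95% Wilson intervals that cover counting error only.

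Hemogenic endothelium is the endothelial cell state from which blood progenitors arise, by a change of fate in which endothelial genes are shut off and genes such as Runx1 and Gfi1 are raised. DNaseI cuts chromatin where nucleosomes are displaced, and distal DHSs hold most enhancers, where GATA, ETS, SOX, TEAD, RUNX, AP-1 and E-box binding factors are known to act in these cells. The listed intervals are built of 100 bp bins, and a wide interval may span several neighbouring elements.

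All 12 HE marker genes fixed for checking the label (Cdh5, Tek, Kit, Kdr, Pecam1, Erg, Sox17, Tal1, Lyl1, Gata2, Runx1 and Gfi1) had a DHS within 1 kb of a TSS in the HE list, against 5 of 12 in MES, 9 in HB, 8 in HP and 4 in MAC. The HE list also had such a DHS at 4 of 6 fibroblast and mesenchyme markers (Col1a1, Col1a2, Thy1 and Prrx1), 3 of 4 cardiac and smooth muscle markers (Tnnt2, Acta2 and Tagln), 3 of 6 markers of committed blood (Itga2b, Spi1 and Myb), 1 of 5 macrophage markers (Cd68) and 1 of 4 pluripotency markers (Nanog). The part that such cells may have in the wide sites was not tested. The share of all genes with such a DHS was not counted in any list. The lists also differ in size and width, with 33305 DHSs of median width 1200 bp in HE and 17734 of 900 bp in HP. These marker counts are therefore a description and do not test the label. The wide sites themselves lay nearest to 11 of the 12 HE markers (all but Kit), where they were 20 of 79 distal sites (25.3%), against 14.0% of all distal HE sites, and 10.4% of all protein-coding genes were nearest to a wide site. They were 2 of 9 at the fibroblast markers (22.2%), 1 of 3 at the macrophage markers, 1 of 6 at the pluripotency markers, none of 8 at the committed blood markers and none of 3 at the muscle markers.

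The sequence in the middle of wide sites is shown for 6 of the 23 genes with at least 5 of them. Each line gives the central 300 bp, plus strand, of the widest site nearest to Smad6 (chr9:63942151-63942450), Foxl1 (chr8:121315924-121316223), Irs2 (chr8:10665324-10665623), Nfib (chr4:82512458-82512757), Gse1 (chr8:120335274-120335573) and 1700001O22Rik (chr2:30717720-30718019), from the RefSeq GRCm38.p6 assembly (mm10). Another Smad6 site (chr9:64049501-64051300) had the same width, 1800 bp, as the one shown. Capitals mark matches, on either strand, to 8 consensus sequences. These are AGATAA for the GATA factors, ACAGGAAG for the ETS factors, CATTGT for SOX, CATTCC for TEAD, TGTGGT for RUNX, TGANTCA for AP-1 and, for E-box binding proteins, CAGCTG as well as CAGATG.
Smad6: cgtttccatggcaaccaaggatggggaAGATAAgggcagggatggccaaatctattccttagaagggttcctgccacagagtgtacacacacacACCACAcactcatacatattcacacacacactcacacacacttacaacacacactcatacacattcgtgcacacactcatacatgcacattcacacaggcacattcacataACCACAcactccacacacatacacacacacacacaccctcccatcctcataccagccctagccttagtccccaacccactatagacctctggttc
Foxl1: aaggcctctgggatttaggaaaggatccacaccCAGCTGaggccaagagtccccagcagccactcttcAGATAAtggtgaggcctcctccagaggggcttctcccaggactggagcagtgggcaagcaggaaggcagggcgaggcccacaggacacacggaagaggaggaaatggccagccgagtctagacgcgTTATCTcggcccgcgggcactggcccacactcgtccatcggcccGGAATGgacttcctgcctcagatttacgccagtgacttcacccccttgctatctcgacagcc
Irs2: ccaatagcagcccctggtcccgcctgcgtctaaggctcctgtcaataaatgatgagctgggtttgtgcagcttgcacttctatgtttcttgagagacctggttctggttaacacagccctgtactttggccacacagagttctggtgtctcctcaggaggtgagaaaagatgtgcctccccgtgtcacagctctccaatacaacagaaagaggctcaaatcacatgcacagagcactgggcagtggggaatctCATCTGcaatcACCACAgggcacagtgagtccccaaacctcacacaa
Nfib: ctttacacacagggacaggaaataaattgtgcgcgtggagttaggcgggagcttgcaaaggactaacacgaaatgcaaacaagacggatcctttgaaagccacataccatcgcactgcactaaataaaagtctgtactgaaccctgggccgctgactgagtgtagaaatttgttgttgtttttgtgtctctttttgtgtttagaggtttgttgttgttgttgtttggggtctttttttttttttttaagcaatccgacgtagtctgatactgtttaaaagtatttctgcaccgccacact
Gse1: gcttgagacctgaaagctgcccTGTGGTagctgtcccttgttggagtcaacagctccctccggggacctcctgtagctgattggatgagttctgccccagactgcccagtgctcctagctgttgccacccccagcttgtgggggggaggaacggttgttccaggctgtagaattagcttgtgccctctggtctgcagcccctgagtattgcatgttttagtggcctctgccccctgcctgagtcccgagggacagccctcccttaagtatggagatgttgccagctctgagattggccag
1700001O22Rik: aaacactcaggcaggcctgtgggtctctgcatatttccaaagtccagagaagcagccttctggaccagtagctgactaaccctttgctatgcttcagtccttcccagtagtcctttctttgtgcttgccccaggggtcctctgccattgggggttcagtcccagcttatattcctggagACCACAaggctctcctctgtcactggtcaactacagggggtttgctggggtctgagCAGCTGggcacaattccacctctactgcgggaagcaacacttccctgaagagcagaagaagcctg
The Foxl1 stretch held matches to GATA at bases 69 to 74 and 195 to 200, to TEAD at 239 to 244 and to the E-box CAGCTG at 34 to 39. The Smad6 stretch held a GATA match at bases 28 to 33 and RUNX matches at 95 to 100 and 206 to 211, and its first part overlaps an exon of the lncRNA Gm36033. The Nfib stretch held no match to any of these consensus sequences. A match is only a run of letters, and the lack of one says nothing about the factor.

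Sites seen in HE alone are shown for 4 endothelial genes, which were singled out after their values were seen. They are the central 300 bp of the widest HE-only site nearest to Egfl7 (chr2:26594470-26594769), Cdh5 (chr8:104095974-104096273), Tek (chr4:94746308-94746607) and Erg (chr16:95449219-95449518), with the same capitals.
Egfl7: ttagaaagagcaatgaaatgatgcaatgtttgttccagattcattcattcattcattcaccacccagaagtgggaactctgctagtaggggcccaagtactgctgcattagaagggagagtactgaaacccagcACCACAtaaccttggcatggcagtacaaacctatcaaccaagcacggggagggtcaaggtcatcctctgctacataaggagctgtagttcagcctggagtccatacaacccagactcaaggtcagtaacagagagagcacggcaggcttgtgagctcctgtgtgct
Cdh5: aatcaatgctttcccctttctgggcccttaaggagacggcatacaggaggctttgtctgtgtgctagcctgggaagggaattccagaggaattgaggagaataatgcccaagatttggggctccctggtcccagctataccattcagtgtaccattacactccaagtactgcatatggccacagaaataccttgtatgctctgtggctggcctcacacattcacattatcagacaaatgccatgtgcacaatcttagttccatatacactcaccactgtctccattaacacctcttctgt
Tek: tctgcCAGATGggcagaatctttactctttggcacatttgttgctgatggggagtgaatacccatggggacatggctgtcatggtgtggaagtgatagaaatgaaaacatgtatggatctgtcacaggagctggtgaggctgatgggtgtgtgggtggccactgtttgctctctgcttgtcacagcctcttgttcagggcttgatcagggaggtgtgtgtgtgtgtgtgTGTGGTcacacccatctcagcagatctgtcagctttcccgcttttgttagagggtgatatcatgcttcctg
Erg: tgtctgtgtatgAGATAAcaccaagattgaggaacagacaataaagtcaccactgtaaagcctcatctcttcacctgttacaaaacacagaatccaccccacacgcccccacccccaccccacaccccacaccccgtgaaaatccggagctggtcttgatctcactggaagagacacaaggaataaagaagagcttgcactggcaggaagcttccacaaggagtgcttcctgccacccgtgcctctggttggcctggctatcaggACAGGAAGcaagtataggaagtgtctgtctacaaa
The Erg stretch, in an intron of that ETS factor gene, held a GATA match at bases 13 to 18 and an ETS match at 266 to 273. The Tek stretch, in an intron of the gene for the angiopoietin receptor TIE2, held an E-box CAGATG at bases 6 to 11 and a RUNX match at 230 to 235. The Egfl7 stretch held 1 RUNX match, at bases 135 to 140, and the Cdh5 stretch held none.

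**Figure D1:**
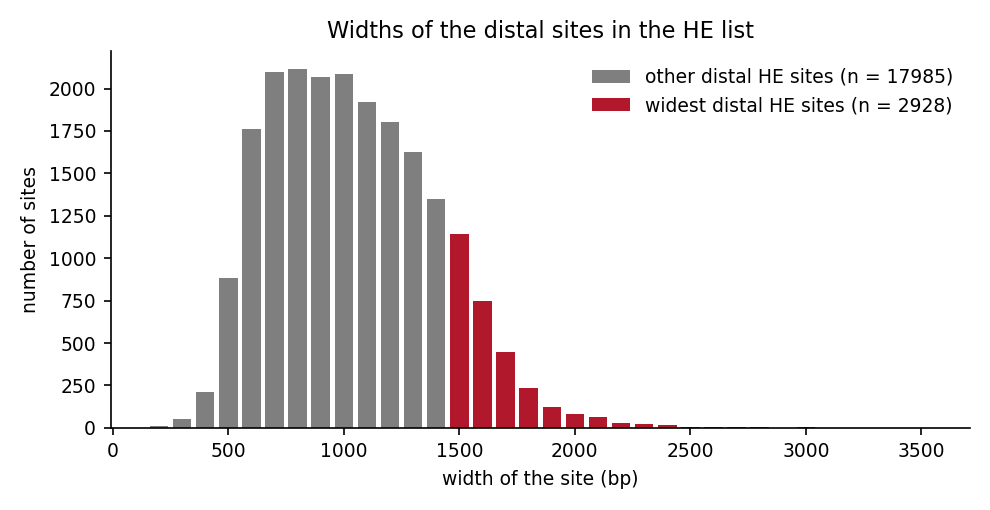
Number of distal HE sites (y axis) at each width in bp (x axis), with the 2928 wide sites in red and the 17985 other distal sites in grey. The wide sites start at 1500 bp and thin out towards 3500 bp.

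Wide sites were mostly of similar width. They had a median width of 1600 bp and a mean of 1651 bp, against 900 bp and 945 bp in the other distal sites, and together covered 4.83 Mb. Of them, 1141 (39.0%) measured exactly 1500 bp, and 1350 distal sites measured 1400 bp and fell just outside. Only 231 (7.89%) reached 2000 bp and 20 (0.683%) reached 2500 bp. HE promoter sites, within 2 kb of a coding TSS, had a median width of 1600 bp. Widths differed between the lists, with a 90th percentile among distal sites of 1200 bp for HB, 1100 bp for HP, 1000 bp for MES and 900 bp for MAC.

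To determine whether the wide sites were also open at other stages, their overlap with each of the other lists was counted. Of the 2928 wide sites, 1825 (62.3%, 60.6 to 64.1) shared at least 1 bp with an HP site, 1670 (57.0%, 55.2 to 58.8) with an HB site, 1459 (49.8%, 48.0 to 51.6) with a MAC site and 1242 (42.4%, 40.6 to 44.2) with a MES site. The shares over all distal HE sites were 27.8% for HP, 30.6% for HB, 30.8% for MAC and 23.4% for MES. Among the other distal sites they were 22.2% (21.6 to 22.8), 26.3% (25.6 to 26.9), 27.7% (27.0 to 28.3) and 20.3% (19.7 to 20.9). In each list the interval of the wide sites lay above that of the narrower ones, and the gap was largest for HP. By this rule HP overlapped the most wide sites and MAC the most narrower ones. With at least 50% of the bases covered HB came first in both, with 40.6% against 37.8% for HP in the wide sites and 22.0% against 16.1% for MAC in the narrower ones. MES then had 24.2% and MAC 23.5% of the wide sites, so that MAC no longer stood above MES.

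A wider interval meets another site by 1 bp more readily, so the same was asked of its middle base alone. The middle of the wide site lay inside an HP site in 53.6% (51.8 to 55.4), an HB site in 48.8% (47.0 to 50.6), a MAC site in 35.9% (34.2 to 37.6) and a MES site in 32.1% (30.4 to 33.8), against 20.7%, 24.7%, 23.0% and 17.8% of the other distal sites, where HB came first. Distal sites of 1200 to 1400 bp (n = 4777), just below the threshold, had 35.6% (34.3 to 37.0) in HP, 32.3% (31.0 to 33.6) in HB, 30% (28.7 to 31.3) in MAC and 22.2% (21.1 to 23.4) in MES by the same rule. The wide sites stayed above this band in all 4 lists.

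Overlap rose over most of the range of widths, and its peak depended on the rule. By 1 bp, the share in HP was 11.1% at 200 to 600 bp, 38% at 1200 to 1400 bp, 56.6% at 1500 bp and 71.4% at 2000 bp or more. By the middle base, it was 10.5%, 35.6% and 52.9% at the same widths and then 36.4% at 2000 bp or more, below the 60.6% at 1600 bp. Thus the 231 sites of at least 2000 bp often met a site of another stage away from their middle. Among those overlapped by HP, 81 of 165 (49.1%) had it off the middle, and 67 of 169 (39.6%) did for HB. Among the sites of exactly 1500 bp these shares were 6.5% and 7.37%.

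**Figure D2:**
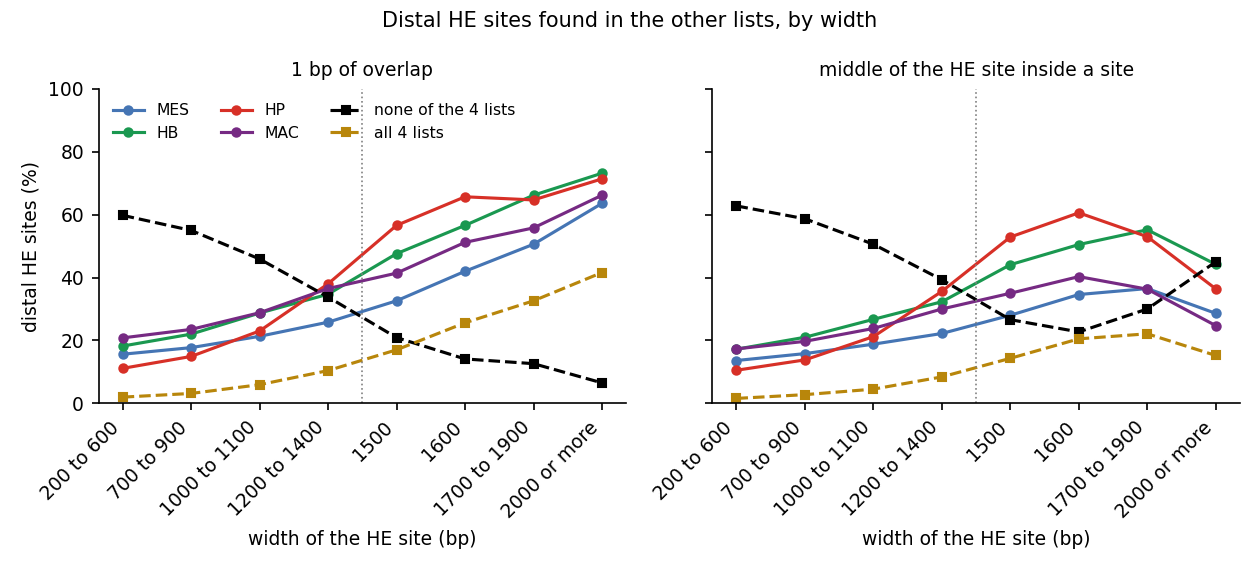
Share of distal HE sites in % (y axis) that overlap each of the 4 other lists, none of them or all of them, by the width of the HE site in bp (x axis), with 1 bp of overlap on the left and the middle base on the right. The dotted line is the threshold; in the left panel every list's share is higher beyond it, and in the right panel each list's share, and that for all 4, is lower at 2000 bp or more than at 1600 bp, while the share in none rises from 22.7% to 45.0%.

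The cover of the wide sites by those of other stages is a description, since choosing the widest HE sites sets it in part. Where an HP site overlapped, it covered a median of 53.3% of the wide site (quartiles 40 and 67.9%), and the HP site had a median width of 900 bp. For HB the median cover was 64.7% and the site width 1100 bp, for MES 53.3% and 900 bp, and for MAC 46.7% and 800 bp. These sites were wider than those that overlapped the narrower HE sites, which had medians of 600 bp in MES, HP and MAC and 800 bp in HB. The other stage's site was wider than the wide HE site itself in 44 of 1670 overlaps with HB (2.63%), 11 with MES, 10 with MAC and 8 with HP. More than 1 site of the same other list lay in 59 wide sites for MAC (2.02%), 36 for MES, 27 for HP and 21 for HB.

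Width chose the sites, so how far it was shared between stages is a description. It was counted by 1 bp of overlap only, which a wider site meets more readily. Of the wide HE sites, 24.1% (22.6 to 25.7) overlapped a site among the widest 10% of the distal HB sites, 21.9% (20.4 to 23.4) one among the widest 10% in MAC, 20.5% (19.1 to 22.0) of HP and 19.0% (17.6 to 20.5) of MES. The other distal HE sites did so in 3.02%, 5.15%, 1.04% and 2.44%, and distal HE sites of 1200 to 1400 bp in 6.32%, 8.54%, 3.14% and 5.25%. In all, 232 wide sites (7.92%) overlapped such a site in all 4 lists, while 1698 (58.0%) did so in none. The share in all 4 lists was 0.139% of the other distal sites and 0.502% of the distal sites of 1200 to 1400 bp.

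Combined over the 4 lists, the largest class of wide sites by 1 bp was that found in all 4, and the order turned over by the middle base, where the largest was that found in none. A site in all 4 other lists was present for 745 wide sites (25.4%, 23.9 to 27.1), against 8.28% of all distal HE sites and 5.48% of the narrower ones, and by the middle base for 18.1% of the wide sites and 4.44% of the narrower ones. With at least 50% of the bases covered by each list it was 11.4% and 2.19%. No site in any other list was present for 461 (15.7%, 14.5 to 17.1), against 43.6% of all distal HE sites and 48.1% of the narrower ones. That share was 28.0% of the wide sites by the middle base (52.4% of the narrower), 27.4% in 500 bp windows (50.5%) and 42.0% where at least 50% of the bases had to be covered (59.4%). By 1 bp, the next combinations were HP alone with 287 sites (9.80%; 6.01% of the narrower sites), HP and MAC with 264 (9.02%; 4.10%), MES, HB and HP with 217 (7.41%; 3.39%), MAC alone with 196 (6.69%; 12.3%), HB and HP with 172 (5.87%; 1.58%), MES and HB with 153 (5.23%; 5.73%) and HB alone with 148 (5.05%; 5.34%). All 16 possible combinations occurred, and 50 wide sites (1.71%) had a MES site with no HB site, against 3.24% of the narrower ones.

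Grouped by time, 1396 wide sites (47.7%, 45.9 to 49.5) were present both before HE (MES or HB) and after it (HP or MAC), 747 (25.5%, 24.0 to 27.1) only after it and 324 (11.1%, 9.98 to 12.3) only before it. The narrower sites had 16.6%, 22.4% and 12.9%. The share shared with HP but not MAC was 23.4% (21.9 to 24.9) against 11.3% of the narrower sites, and that shared with MAC but not HP was 10.9% (9.78 to 12) against 16.8%. Among the sites with no HP site, however, a MAC site was present for 318 of 1103 wide sites (28.8%, 26.2 to 31.6) and 3019 of 13989 narrower ones (21.6%, 20.9 to 22.3).

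**Figure D3:**
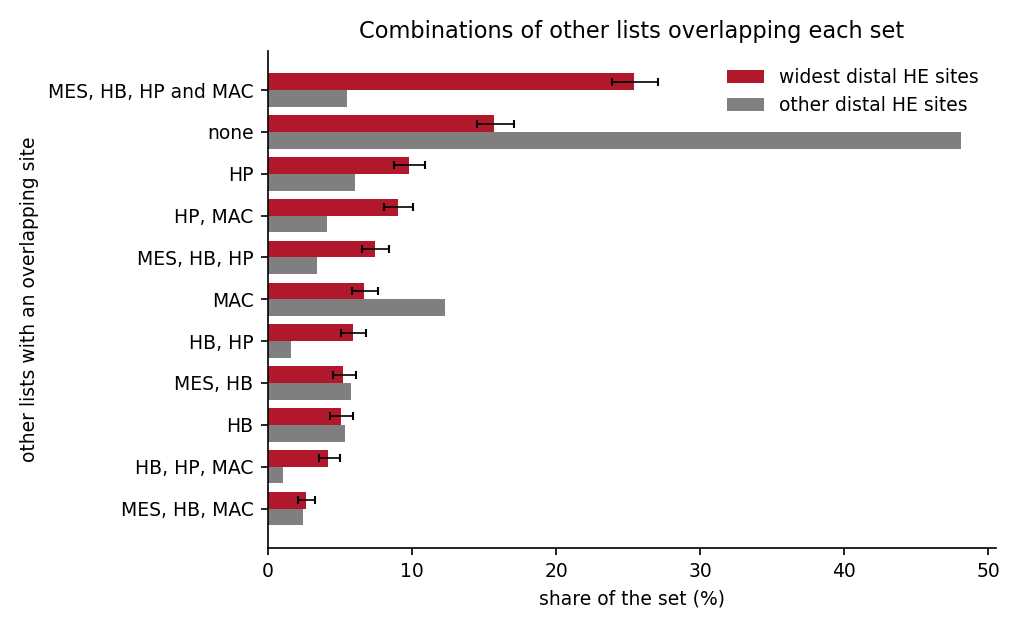
Share in % (x axis) of the wide distal HE sites (red, with 95% Wilson intervals) and of the other distal HE sites (grey) in each combination of other lists (y axis) that held at least 2% of the wide sites. The red bar is longest for all 4 lists (25.4%) and the grey bar for none (48.1%).

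Wide sites lay a median of 25.7 kb from the nearest coding TSS (quartiles 10.5 and 61.7 kb), and the other distal sites 28.7 kb (11.2 and 72.1 kb). By the position of the middle base, 1615 (55.2%, 53.4 to 57.0) were intergenic (here outside genes with a curated coding transcript, so that a noncoding gene may lie there), 1214 (41.5%, 39.7 to 43.3) were in introns, 64 (2.19%) in coding exons and 35 (1.20%) in untranslated exons. The narrower sites were 50.4% intergenic (49.6 to 51.1) and 46.0% intronic (45.3 to 46.7). Sites over 100 kb from any coding TSS made up 14.7% (13.4 to 16.0) of the wide and 17.9% (17.4 to 18.5) of the narrower sites. Wide sites made up the largest shares of distal sites on chromosomes 13 (17.5%) and 8 (17.4%), and 9.70% on X, against 14.0% over the genome. A second wide site lay within 12.5 kb of 409 wide sites (14.0%, 12.8 to 15.3), and a wide site lay as close to 9.39% (8.97 to 9.82) of the narrower ones.

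Some wide sites were promoter-like in sequence although no curated coding TSS lay near. The central 500 bp was CpG-rich (GC of at least 50% and an observed to expected CpG ratio of at least 0.6) in 411 wide sites (14.0%, 12.8 to 15.3) and in 4.03% (3.75 to 4.32) of the narrower sites. A TSS of any annotated transcript, predicted and noncoding ones included, fell inside 536 wide sites (18.3%) and 4.92% of the others, and the middle base lay within 500 bp of such a TSS in 14.1% (12.9 to 15.4) and 5.10% (4.79 to 5.44), a measure that does not grow with width. These were lncRNA starts in 298 wide sites, other starts of protein-coding genes in 165, tRNA genes in 75 and miRNAs in 12. The tRNA genes, which RNA polymerase III transcribes, were in 2.56% (2.05 to 3.20) of the wide and 0.256% (0.192 to 0.341) of the narrower sites. Of the 75 sites with a tRNA gene, 76% were in all 4 other lists and none was without a site in another list.

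CpG-rich sites were shared more widely than the other wide sites. Of the 411, 66.2% were in all 4 other lists, and 87.6% had a MES site and 92.7% an HB site. Of the 2517 other wide sites, 18.8% were in all 4, 35.0% had a MES site, 51.2% an HB site, 60.0% an HP site and 46.0% a MAC site, and 17.6% were in no other list. By 1 bp HP therefore led among the sites that were not CpG-rich, and MES came last. Only 0.697% of the sites shared with HP alone and 0.379% of those shared with HP and MAC were CpG-rich, against 36.5% of those in all 4 lists and 3.90% of the HE-only sites.

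Among the 10 widest sites, 5 were repeats, GC-rich sequence or TSSs of other transcripts. The widest, 3500 bp at chr14:19415958-19419457, was 83.6% repeats, lay 168 kb from the nearest coding TSS (Gm2237) and was 95.1 to 99.5% covered in all 4 other lists. A site of 3000 bp at chr17:39843124-39846123 was 94.4 to 99.8% covered in all 4 lists, had a GC content of 69.8% and lay 106 kb from Esp38. Whether read mapping had a part in these was not tested, and only 15 wide sites (0.512%) were at least 50% repeats. A site of 3400 bp at chr11:69408511-69411910 lay in an intron of Kdm6b, a histone H3K27 demethylase gene, held another TSS of that gene and 2 sites from each other list. Sites of 3000 bp at chr13:21158567-21161566 and 2800 bp at chr19:12009430-12012229 each held a tRNA gene.

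The remaining 5 held no annotated TSS. They were a site of 3100 bp in an intron of Dpysl2 (chr14:66844558-66847657; HB, HP and MAC), one of 3000 bp 83.9 kb from 1700001O22Rik (chr2:30716370-30719369; all 4 lists), one of 2800 bp 49.3 kb from Atf7ip (chr6:136468109-136470908; all 4 lists), one of 2800 bp in an intron of Zfpm1 (chr8:122312524-122315323; HB, HP and MAC) and one of 2800 bp 119 kb from Lrrc30 (chr17:67512324-67515123), which no other list held. Zfpm1 encodes FOG1, the cofactor of GATA1 in blood cells. Its site held 2 HP sites, which covered 50% of it, and MES had none.

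The widest examples of each combination, with ties in width taken by chromosome and start, showed the same spread. After the Lrrc30 site, the widest HE-only site measured 2500 bp (chr2:26593370-26595869), in an intron of Agpat2, 7.98 kb from the TSS of Egfl7, an endothelial secreted factor, and 3200 bp from a start of Mir126b. For HP alone the widest were 2300 bp near Otogl (19.4 kb) and 2300 bp near Gtf3c5 (15.5 kb), of which the HP site covered 34.8% and 78.3%. For HP and MAC they were 2300 bp near Suco and 2300 bp near Pom121l2, the latter with a tRNA start. For MES, HB and HP they were 2500 bp near Rhou and 2400 bp in an intron of Slc2a3, a glucose transporter gene. For HB and HP they were 2400 bp near Atp5mpl and 2300 bp in an intron of Col4a1, a basement membrane collagen gene, and for MES and HB 2300 bp near Zmynd8 and 2200 bp near Ndufa8. For HB alone they were 2400 bp near Spesp1 and 2100 bp in an intron of Susd4, and for MAC alone 2400 bp over a coding exon of Cyren and 2100 bp 24.5 kb from Igfbp3.

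The wide sites were nearest to 2193 genes, which is 10.4% of the 21000 protein-coding genes and 25.6% of the 8581 genes that were nearest to any distal HE site. Of these, 1696 had 1 wide site, 497 had 2 or more, 147 had 3 or more and 23 had 5 or more. The nearest gene is a position and was not tested as a target. Taken by count and then by summed width, the first 12 were Smad6, Foxl1, Irs2, Nfib, Zfp608, Gse1, 1700001O22Rik, Bach2, Klf6, Chd2, Chd9 and Rgs3. The last 6 of these had 5 wide sites each, as did 11 other genes, of which Zfp217 also had the summed width of Chd2, Chd9 and Rgs3 (8600 bp) and was placed after them by symbol. Genes that have more bases nearest to them have more room for sites.

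Smad6, an inhibitor of BMP signalling, had 9 wide sites among 15 distal sites (60%), the most of any gene, spread from 3.51 to 103 kb from its TSS within the 180 kb of sequence nearest to it. Of the 9, 7 had an HB site, 6 an HP site, 3 a MES site and 2 a MAC site, and 2 were in no other list (chr9:63918301-63920000, and chr9:63970201-63971900 in an intron of the gene). The longest run of wide sites in the genome, 5 sites within 34.9 kb (chr9:64044501-64079400), began upstream of Smad6, and its last site lay nearest to Lctl. The intronic site nearest to the TSS (chr9:64017701-64019400, 1700 bp) was in MES, HB and HP and not in MAC.

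Foxl1, a forkhead factor gene, had 7 wide sites of 10 distal sites (70%), at 2.11 to 188 kb, all intergenic. Of them, 6 had an HB site, 6 an HP site, 3 a MES site and 1 a MAC site. Irs2, which encodes an adaptor of the insulin receptor, had 7 of 18 (38.9%), at 39.1 to 343 kb, and all 7 had both an HB and an HP site, while 2 had a MES and 3 a MAC site. At these loci HB and HP were thus the lists that shared most of the wide sites. The same 2 lists led over all wide sites, with 62.3% for HP, 57.0% for HB, 49.8% for MAC and 42.4% for MES.

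Nfib, a nuclear factor I gene, had 6 wide sites of 18, and 3 of them were in no other list (1500 bp at 240 kb, 1800 bp at 32.1 kb and 1600 bp at 117 kb). Zfp608, a zinc finger gene with 1270 kb of sequence nearest to it, had 6 of 22, of which 2 were shared with HP alone. Gse1 had 6 of 16, all intronic, and 5 of them were in all 4 lists. Chd2, a chromatin remodeller gene, had 5 of 10, and all 5 were in all 4 lists. Bach2, a transcriptional repressor of lymphoid and myeloid cells, had 5 of 14, all in its introns and all with an HP site, while 1 had a MES site. Klf6 had 5 of 12, all with a MAC site and 4 with an HP site. Chd9 had 5 of 12 with all 5 in HB, Rgs3 had 5 of 20 with 4 in HP, and 1700001O22Rik had 5 of 14 with all 5 in MES and HB. Some sites at these genes held an annotated TSS. Examples are a Chd2 site with the TSS of Chaserr (chr7:73557827-73559526) and the widest Bach2 site, with another Bach2 TSS (chr4:32238208-32240407). The Chd9 sites at chr8:90907624-90909723 and chr8:90954524-90956023 held other TSSs of Chd9.

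Across the 12 gene lists, 116 of 238 genes (48.7%) were nearest to a wide site, against 10.4% of all protein-coding genes. Where the TSSs of every annotated transcript set both the distal sites and the nearest gene, 61 of the genes were nearest to a wide site. These genes also had many distal sites of any width, so the share of wide sites among a list's distal sites was set beside the 14.0% over the genome. This share is made of the width that chose the sites and is a description.

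Genes of endothelial receptors, junctions and surface proteins had wide sites in 18 of 25 cases, with 35 wide sites of 135 distal sites (25.9%, 19.3 to 33.9). Of the 35, 10 (28.6%) were in no other list, 45.7% had an HP site, 42.9% an HB site, 40% a MAC site and 20% a MES site, where all wide sites had 15.7%, 62.3%, 57.0%, 49.8% and 42.4%. Kdr, which encodes the VEGF receptor FLK1, had 4 of 19: 1 in HE alone (chr5:75899926-75901425), 1 in its intron shared with HB and HP (chr5:75961626-75963225), 1 shared with HP and MAC and 1 with MAC alone. Tek had 2 of 4, at 23.7 and 7.17 kb, and both were in no other list. Cdh5, the gene of vascular endothelial cadherin, had 2 of 7, of which the one 5.50 kb from its TSS (chr8:104095224-104097023) was HE-only.

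Eng, a TGF-beta coreceptor of endothelium, had 2 intronic wide sites, and the one 15.2 kb from the TSS (chr2:32660970-32662669) was HE-only. Flt1, another VEGF receptor gene, had 3 of 8, one each in HE alone, with HP, and with MES, HB and HP. S1pr1, the sphingosine-1-phosphate receptor gene, had 3 of 10, of which 1 was HE-only (16.2 kb). Tie1 and Aplnr each had 1 wide site and it was HE-only, whereas both sites of Nrp1, a coreceptor of VEGF, were shared with MAC alone. Cd34 had 3 of 6, and all 3 had a MAC site. The 10 HE-only sites of this list were in no other stage that these lists cover, and whether they are specific to HE was not tested.

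Endothelial transcription factor genes had wide sites in 13 of 25 cases and 22 wide sites of 156 (14.1%, 9.50 to 20.4), with an HP site in 68.2% of them, an HB site in 45.5%, a MAC site in 45.5% and a MES site in 40.9%, against 62.3%, 57.0%, 49.8% and 42.4% of all wide sites. Ets1 had 3 of 20, Foxo1 3 of 14 and Elk3 2 of 9. Gata2 had 2 of 3, one intergenic and in all 4 lists (chr6:88189409-88191208) and one intronic and shared with HP and MAC (chr6:88202409-88204108). Erg had 2 of 5, both intronic, one HE-only (chr16:95448619-95450118) and one shared with HP. Sox17 had 2 of 4, both shared with MES and HB and absent from HP and MAC. Fli1, Sox18, Lmo2 and Etv2 had none.

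Hematopoietic transcription factor genes had wide sites in 8 of 20 cases and 19 wide sites of 85 (22.4%, 14.8 to 32.3), with an HP site in 73.7% (14 of 19, against 62.3% of all wide sites), a MES site in 21.1% (4 of 19, against 42.4%), a MAC site in 26.3% (5 of 19, against 49.8%) and an HB site in 57.9% (11 of 19, against 57.0%). Zfpm1 had 4 of 7, all intronic and all with an HP site, and 3 of them lay with a site nearest to Trhr2 in a run of 18.2 kb. Cbfa2t3, which encodes the corepressor ETO2, had 4 of 6, of which 3 had an HP site. Runx1, required for blood to form from HE, had 2 of 13, one in its intron (chr16:92821819-92823618, 1800 bp) and one 58.0 kb away (chr16:92883319-92884818), and both were shared with HP alone. Gfi1 had 1, in an intron of Evi5 and shared with HB and HP. Mecom had 4 of 10, none of them with a MAC site. Spi1, Myb, Gata1, Ikzf1 and Gfi1b had none.

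Genes of the TGF-beta and BMP pathway had wide sites in 16 of 25 cases and 32 wide sites of 123 (26.0%, 19.1 to 34.4), of which Smad6 gave 9. Of the 32, 68.8% had an HB site, 68.8% an HP site, 37.5% a MES site and 31.2% a MAC site, against 57.0%, 62.3%, 42.4% and 49.8% of all wide sites. Id3, a BMP-responsive inhibitor of E-box factors, had 3 of 7, all with an HB site and none with a MAC site. Bmp2 had 3 of 8, of which 2 were HE-only at 225 and 126 kb. Smad7 had 2 of 25, both with an HB, an HP and a MAC site, one of them 2600 bp wide. Smad1 had 2 of 5, both with an HP site.

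The TEAD, YAP and Hippo list had wide sites at 8 of 20 genes and 13 wide sites of 68 (19.1%, 11.5 to 30), of which 76.9% had an HB site (10 of 13, against 57.0% of all wide sites). Tead1, which encodes a DNA-binding partner of YAP, had 3 of 12 and all 3 had an HB site. Amotl2, which encodes a binding protein of YAP, had 3 of 7 within 17.8 kb, one HE-only (chr9:102721401-102723000). Actin cytoskeleton and smooth muscle genes had 21 of 104 (20.2%, 13.6 to 28.9), among them Actn1 with 3 of 10 and Myh9 with 2 of 9. Extracellular matrix and mesenchyme genes had 15 of 97 (15.5%, 9.60 to 24.0) and Notch pathway genes 14 of 81 (17.3%, 10.6 to 26.9). Of the 14 Notch sites, 64.3% had a MAC site, 57.1% an HB site, 50% an HP site and 50% a MES site. All wide sites had 49.8%, 57.0%, 62.3% and 42.4%. Of the Notch list, Maml3, a coactivator gene, had 3 of 15, all with a MES and a MAC site and 2 of them in all 4 lists. Both Notch1 sites were shared with MAC alone, both Hes1 sites had an HB site, both Maml2 sites a MAC site, and of the 2 Hey1 sites 1 had an HB and 1 an HP site.

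AP-1 factor genes had 8 wide sites of 26 (30.8%, 16.5 to 50.0), and all 8 had both an HP and a MAC site (62.3% and 49.8% of all wide sites) while 7 had a MES and 7 an HB site (42.4% and 57.0%), as at Fos, where 2 of 3 distal sites were wide and in all 4 lists. Primitive streak and cardiac mesoderm genes had 11 of 64 (17.2%, 9.88 to 28.2), of which 72.7% had an HB site (8 of 11, against 57.0% of all wide sites) and 18.2% an HP site (2 of 11, against 62.3%). All 3 wide sites of Hand2, a factor of cardiac mesoderm, and both of Gata6 had an HB site and none an HP or MAC site. Both wide sites of Eomes, a factor of the primitive streak, had a MES and an HB site, and 1 of them had an HP site. Macrophage and myeloid genes had 4 of 17 (23.5%, 9.56 to 47.3), at 3 of 20 genes, and pluripotency genes 4 of 14 (28.6%, 11.7 to 54.6). Both wide sites of Fcgr1, 34.5 and 39.7 kb from its TSS, and the wide site of Tyrobp held a TSS of another gene.

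**Figure D4:**
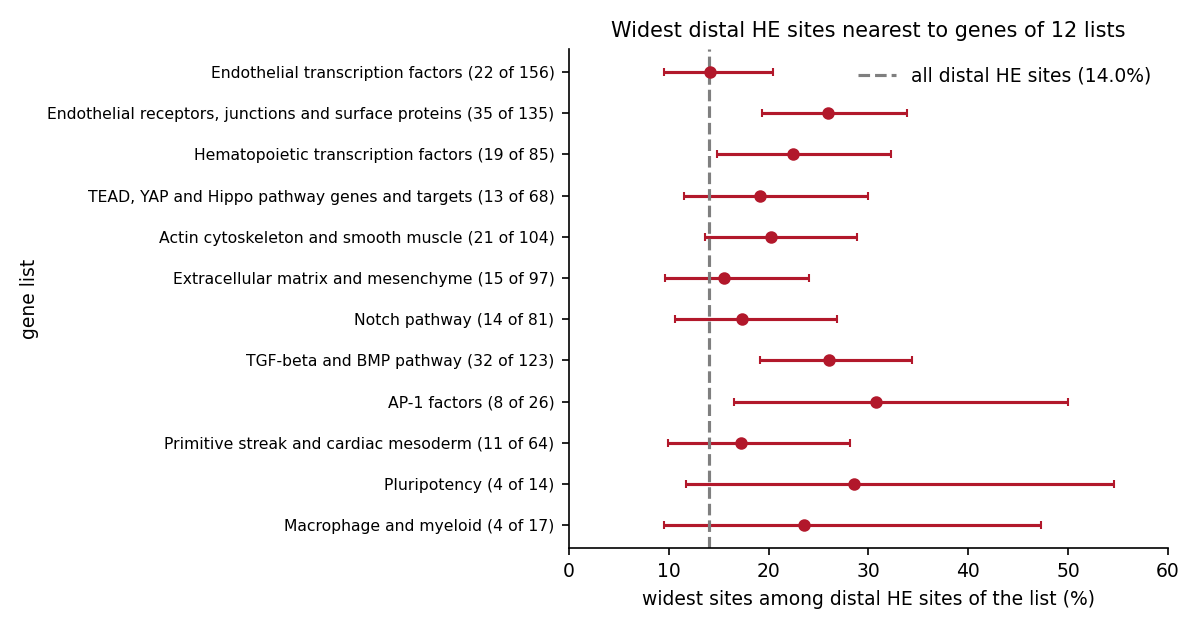
Share in % (x axis) of the distal HE sites nearest to genes of each of the 12 lists (y axis, with wide sites of distal sites in brackets) that were among the wide sites, with 95% Wilson intervals. The dashed line is the 14.0% over all distal HE sites; the shares run from 14.1% for endothelial transcription factors to 30.8% for AP-1 factors, and they describe the width that chose the sites.

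Matches to 17 consensus sequences were counted in the central 500 bp, a window of the same length in every site, on both strands. Beside those given above they were FOX (TGTTTAC), KLF/SP (GGGCGG), MEIS (TGACAG), RBPJ (GTGGGAA), PU.1 (GAGGAAGT), CEBP (TTGCNNCAA), MEF2 (CTATTTATA), SMAD (GTCTAGAC) and CTCF, and the PU.1 and ETS consensus share the letters AGGAAG. Wide sites had more KLF/SP matches, 27.6% (26.0 to 29.3) against 14.9% (14.4 to 15.4) of the other distal sites. They had fewer matches for 9, among them CTCF with 1.23% (0.889 to 1.70) against 4.61% (4.32 to 4.93) and AP-1 with 20.4% (18.9 to 21.9) against 26.4% (25.8 to 27.1). ETS was in 13.1% against 15.7%, SOX in 25.1% against 28.7%, TEAD in 30.3% against 33.3%, RUNX in 32.3% against 35.1%, CAGCTG in 31.6% against 34.3%, CAGATG in 34.0% against 38.5% and MEIS in 34.1% against 37.6%. The intervals overlapped for GATA, in 31.8% (30.2 to 33.5) against 31.5% (30.8 to 32.2), and for FOX, RBPJ, PU.1, CEBP, MEF2 and SMAD.

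Part of this went with CpG-rich sites. Among sites that were not CpG-rich, GATA was in 35.8% (33.9 to 37.6) of the wide and 32.4% (31.7 to 33.1) of the narrower sites, KLF/SP in 19.4% against 13.0%, AP-1 in 22.8% (21.2 to 24.4) against 27.2% (26.6 to 27.9) and CTCF in 1.03% against 4.72%, and the intervals of the other 13 overlapped. CTCF, the insulator factor whose sites are narrow footprints, fell along the range of widths from 7.09% at 200 to 600 bp to 2.51% at 1200 to 1400 bp and 1.40% at 1500 bp, with 0.402 to 1.85% in the wider classes. Over the whole interval, wide sites held 0.0254 CTCF matches per kb and the other distal sites 0.0630. KLF/SP rose along the same range, from 11% to 18.6% and 23.5%, and reached 35.9% at 2000 bp or more.

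**Figure D5:**
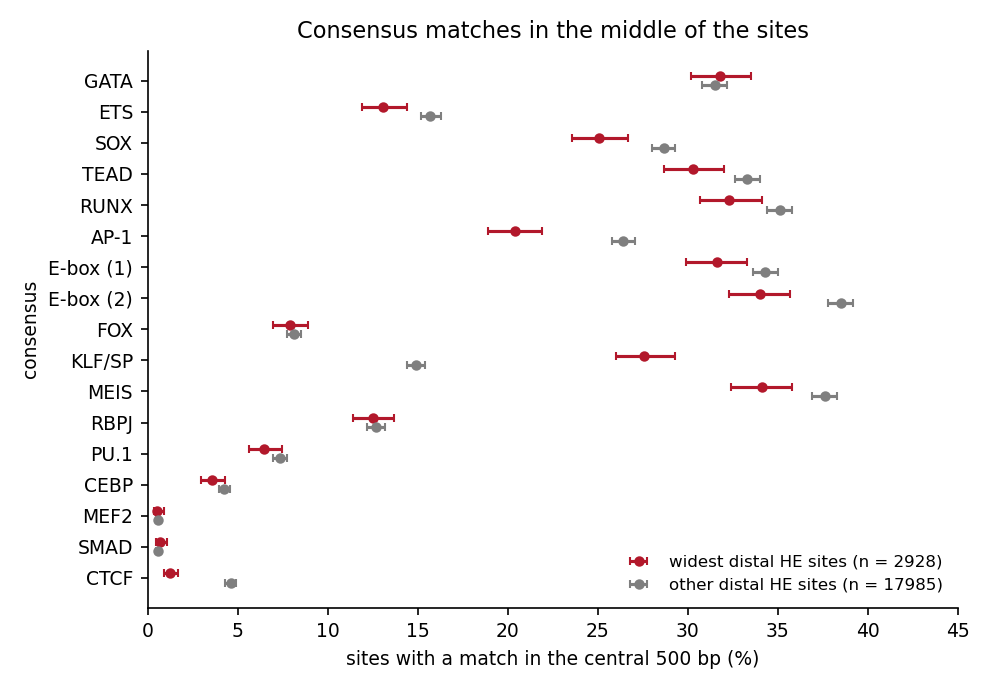
Share of sites in % (x axis) with a match to each consensus (y axis; E-box 1 is CAGCTG and 2 is CAGATG) in the central 500 bp, for wide (red) and other distal HE sites (grey), with 95% Wilson intervals. KLF/SP stands higher in the wide sites (27.6% against 14.9%) and CTCF lower (1.23% against 4.61%).

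Consensus matches also differed between the combinations of lists. GATA was in 58.7% (51.3 to 65.8) of the wide sites shared with HB and HP and in 51.9% (46.1 to 57.6) of those shared with HP alone, against 38.6% (34.3 to 43.1) of the HE-only sites, 25.5% (19.9 to 32.0) of those shared with MAC alone and 14.4% (12 to 17.1) of those in all 4 lists. Narrower sites of the same combinations had 49.3%, 46.8%, 35.4%, 25.6% and 17.0%, with overlapping intervals. For MES, HB and HP together GATA was in 35.5% (29.4 to 42.1) of the wide and 19.3% (16.4 to 22.7) of the narrower sites, which did not overlap. RUNX was in 45.3% (39.6 to 51.1) of the wide sites shared with HP alone and 23.1% (20.2 to 26.2) of those in all 4 lists, and the narrower sites of these combinations had 46.4% and 26.6%, with overlapping intervals.

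AP-1 was in 39.4% (33.7 to 45.4) of the wide sites shared with HP and MAC, the highest of these combinations, and in 8.50% (5.03 to 14.0) of those shared with MES and HB. At narrower sites these combinations had 50.1% (46.5 to 53.7) and 13.3% (11.4 to 15.5). SOX was in 33.6% (29.5 to 38.1) of the HE-only wide sites and 15.7% (13.3 to 18.5) of those in all 4 lists, and in 34.3% and 17.3% of the narrower sites there, with overlapping intervals. KLF/SP was in 53.2% (49.6 to 56.7) of the wide sites in all 4 lists, against 37.7% (34.8 to 40.8) of the narrower ones there, and in 11.7% of the HE-only wide sites, against 9.85% of the narrower ones. CTCF was in 3.49% (2.39 to 5.06) of the wide sites in all 4 lists and 17.0% (14.8 to 19.5) of the narrower ones. Among sites in all 4 lists, the wide ones thus had more KLF/SP and fewer CTCF matches.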

How the data were processed

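DNaseI-seq was carried out by the authors on sorted cells of each stage, and reads were trimmed with CutAdapt, aligned to mm10 with Bowtie, reduced to unique reads, cleared of duplicates with Picard and called as DHSs with DFilter in bins of 100 bp. HOMER is also named in the labels. Versions are not given in the sources used here. The deposited files hold 3 columns (chromosome, start and end), with no signal, score or count, and 1 list per stage. Every width was a multiple of 100 bp, no interval passed the end of a chromosome and none was repeated.

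Here TSSs were the 25999 starts of curated protein-coding transcripts of 21000 genes in RefSeq GRCm38.p6. Overlap needed 1 bp unless stated otherwise, and Python 3 with numpy and pandas was used. Functions were tested on simulated data. Repeats are the soft-masked bases of the assembly. No test between stages was possible with n = 1, so shares carry 95% Wilson intervals, which cover counting error only.

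The named sites and genes follow a rule: the 10 widest sites, the 12 genes nearest to the most wide sites (ties by summed width and then symbol), the widest pair in each combination of lists with at least 5% of the wide sites, and in each gene list up to 5 genes with at least 2 wide sites. Genes named beyond it, such as Tek, Eng, Tie1 and Gfi1, and the sites shown for Egfl7, Cdh5, Tek and Erg, were picked after their values were seen. The wide sites, the gene lists (238 of 238 symbols matched) and the consensus sequences were chosen with earlier results of these data known. Alternatives are given in the closing section.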

Additional observations from a re-analysis of the deposited data

How the results depend on the processing

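The wide sites kept their side of the other distal sites in all 66 comparisons of overlap under the alternatives, while the size of the shares changed with the rule; why they changed was not tested except where the rule itself sets it. By the middle base, the shares overlapped by MES, HB, HP and MAC, by none and by all 4 were 32.1, 48.8, 53.6, 35.9, 28.0 and 18.1%, also where the comparison was with sites of 1200 to 1400 bp, an alternative chosen after seeing the data. In windows of 500 bp around the middles they were 32.1, 47.2, 54.3, 38.3, 27.4 and 18.4%. With at least 50% of the bases covered they were 24.2, 40.6, 37.8, 23.5, 42 and 11.4%, and HB then stood above HP. At the 95th percentile of width (1600 bp, 1787 sites) they were 48.7, 63.1, 66.0, 55.2, 12.4 and 30.8%, and at the 80th (1400 bp, 4278 sites) 38.1, 51.7, 57.7, 47.1, 19.2 and 21.6%. Beyond 10 kb from a TSS (2222 sites) MES, HB and MAC gave 38.5, 53.2 and 47.7%, none 17.1% and all 4 22.1%. With the TSSs of every annotated transcript (2228 sites) they were 35.7, 51.8, 59.4, 45.3, 17.8 and 18.7%, and 61 genes of the lists had a wide site, or 100 with the nearest gene still taken by curated TSS. With the TSSs of every protein-coding transcript, predicted ones included (2719 sites), all 4 gave 23.7% and the other shares stayed within their intervals; both were added after seeing the data. Autosomes alone moved no overlap share beyond its interval, and neither did sites with under 50% repeats, an alternative chosen after seeing the data.

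The CpG-rich share was 15.6% at the 95th percentile, 12.1% at the 80th, 11.7% beyond 10 kb and 11% under the stricter definition (GC 0.55, ratio 0.65). Sites touching an exon made up 10.8%, against 3.38% with the middle in one. The number of consensus sequences whose intervals did not overlap, 10 of 17, was 6 beyond 10 kb and 4 among sites that are not CpG-rich, the latter chosen after seeing the data, and 7 to 11 under the others. With no depth in the lists, a site missing from a list may be closed or not called, and the 2 cannot be told apart.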
